A study of Mus musculus with 6 samples.

Results

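Galnt1 and its relatives encode the enzymes that start mucin-type O-glycosylation, and they were followed here in Hlf-expressing hematopoietic cells of the mouse embryo. The members were 9 Galnt genes (Galnt1, Galnt2, Galnt3, Galnt4, Galnt6, Galnt7, Galnt10, Galnt11 and Galnt12) and C1galt1, which makes 10 of 47517 gene symbols. They were selected on earlier results of the same comparison of yolk sac with caudal cells, in which Galnt1 stood out. The difference of each member between tissues is therefore given as a description, with no p-value. All 6 libraries came from C57BL/6 embryos at embryonic day 10.5 with the genotype Hlf-tdTomato knock-in, a reporter at the locus of the blood stem cell factor Hlf. Sorted cells were Hlf-tdTomato+, c-Kit+ and CD45-. Cells of 3 libraries were taken from the caudal region of the embryo and those of the other 3 from the yolk sac, at 100 cells a library. Embryos without the knock-in were not analysed here. Separate embryos are not stated for the replicates, so errors and p-values cover the spread between these libraries, which may be technical.

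In mucin-type O-glycosylation a GalNAc-transferase in the Golgi moves N-acetylgalactosamine from UDP-GalNAc to a serine or threonine of a secreted or membrane protein. Galnt1 and Galnt2 encode broadly acting enzymes that start on bare peptide, while the enzymes of Galnt4, Galnt7 and Galnt10 prefer peptides that already carry the sugar. C1galt1 then adds galactose to form the core 1 structure, for which it needs the chaperone encoded by C1galt1c1. Mice without Galnt1 are known for bleeding and impaired lymphocyte homing, and embryos without C1galt1 for haemorrhage.

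Galnt1 was the member that set the tissues apart. Its level in transcripts per 1000000 (TPM, scaled for transcript length) was 10.7, 10.7 and 8.44 in caudal replicates 1, 2 and 3. Yolk sac replicates 1, 2 and 3 had 36.4, 27.5 and 25.1 TPM. Every yolk sac library was above every caudal library. The caudal mean was 9.95 TPM ± 1.30 and the yolk sac mean 29.7 TPM ± 5.98 (SD, n = 3 each), a ratio of 2.98. On the log2(TPM + 1) scale, which understates changes of low genes, the difference (yolk sac minus caudal) was 1.48 (SE 0.21). Within a library, Galnt1 lay above 54.2% to 57.4% of the genes at 1 TPM or more in the caudal cells and above 79.2% to 84.9% in the yolk sac. Galnt1 lies on chromosome 18 (24205344 to 24286818, plus strand, GRCm38), and no other gene's exons overlap its own in GENCODE M21. In bulk libraries a larger share of cells with a transcript and more transcript per cell cannot be told apart.

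Of the 10 members, 8 reached 1 TPM in at least 3 of the 6 libraries and entered the fit over all such genes, while Galnt3 and Galnt6 did not. Galnt1 was the 1 of these 8 past the threshold of that fit (limma, Benjamini-Hochberg adjusted p under 0.05). This call restates the choice of the members and is no test of it, and it was lost in 11 of 16 alternative settings, among them all 6 that left out 1 library. Over all 16436 tested genes 0.0365% passed toward the yolk sac, 0.347% toward the caudal cells and 0.383% in either direction. Galnt1 was also the only one of the 10 whose libraries did not overlap between tissues. Such separation was seen in 15.6% of all tested genes and, with the yolk sac higher, in 4.14%. The median difference of the 8 members was 0.21 on the log2 scale, and that of all tested genes -0.09. Without yolk sac replicate 2 these medians were 0.06 and -0.02, and with yolk sac replicates 1 and 2 both left out, which leaves 1 yolk sac library, -0.03 and -0.09.

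**Figure D1:**
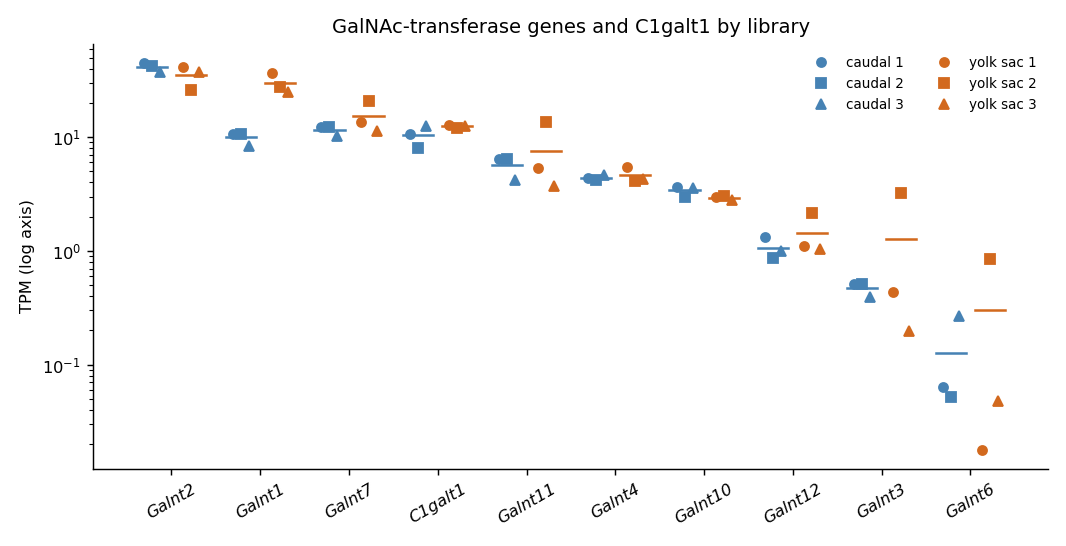
Level of each member in TPM (log axis) in the 3 caudal libraries (blue) and the 3 yolk sac libraries (orange), with symbols for replicates 1 to 3 and a bar at each mean. Galnt1 lies at 8.44 to 10.7 TPM in the caudal cells and 25.1 to 36.4 TPM in the yolk sac, while for Galnt7, Galnt11, Galnt12, Galnt3 and Galnt6 yolk sac replicate 2 lies above the 5 other libraries.

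Galnt2, the other broadly acting enzyme gene, was the most abundant member in 5 of 6 libraries. Caudal replicates 1, 2 and 3 had 44.6, 42.1 and 37.1 TPM of it, and yolk sac replicates 1, 2 and 3 had 41.5, 26.1 and 37.4 TPM. The tissues overlapped, and yolk sac replicate 2 was the lowest library. The log2 difference was -0.25 (SE 0.21). Galnt1 stood at 0.23 to 0.25 of the Galnt2 level in the 3 caudal libraries and at 0.67, 0.88 and 1.05 of it in yolk sac replicates 3, 1 and 2. This ratio is formed within a library and does not depend on how libraries are scaled. It can still depend on the mix of cells in a library, which was not tested. The ratio was highest in yolk sac replicate 2, the library lowest in Galnt2 and highest in endoderm markers, as given below. Exons of Galnt2 overlap those of 1810008B01Rik and Gm20388, so its value is less certain.

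The make-up of the transferase transcripts differed in the same way. Galnt1 made up 12.8%, 13.3% and 12.1% of the summed TPM of the 9 Galnt genes in caudal replicates 1, 2 and 3. Its share was 34.1%, 27.2% and 29.2% in yolk sac replicates 1, 2 and 3, with no overlap. The share of Galnt2 was 53.0% ± 0.31 in the caudal cells and 36.1% ± 9.17 in the yolk sac (SD, n = 3 each). The 9 genes summed to 78.0 ± 7.33 TPM in the caudal cells and 98.0 ± 10.9 TPM in the yolk sac (SD, n = 3 each). Without Galnt1 the sums were 68.0 ± 6.08 and 68.4 ± 6.70 TPM (SD, n = 3 each). Galnt1 was chosen on this contrast, so its share and the smaller difference in the sum without it restate that choice. In yolk sac replicate 2 Galnt3, Galnt6, Galnt7, Galnt11 and Galnt12 summed to 40.46 TPM, against 16.05 to 20.56 TPM in the other libraries. Galnt2 was lowest in that library, so the like sums without Galnt1 hold shifts in both directions. TPM is scaled for length, so levels and shares can be compared between genes.

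**Figure D2:**
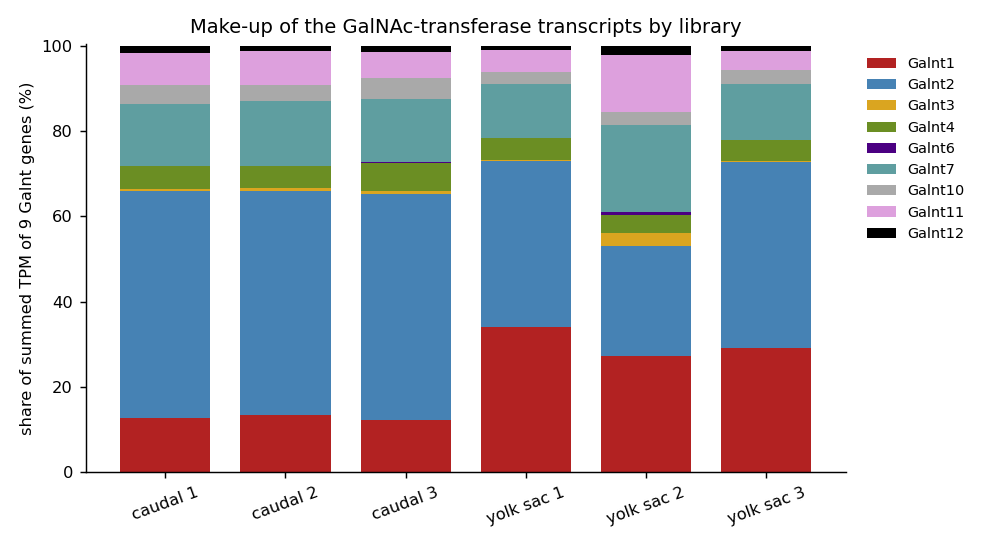
Share of each of the 9 Galnt genes in their summed TPM (percent, stacked bars) in each of the 6 libraries. Galnt1 (bottom, red) takes 12.1% to 13.3% in the caudal libraries and 27.2% to 34.1% in the yolk sac libraries.

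C1galt1, whose product extends the first sugar, did not separate the tissues. Caudal replicates 1, 2 and 3 had 10.7, 7.96 and 12.5 TPM of it, and yolk sac replicates 1, 2 and 3 had 12.8, 12.0 and 12.5 TPM. The yolk sac libraries were close to each other (SD 0.43 TPM, n = 3) and overlapped the upper end of the caudal range. The log2 difference was 0.26 (SE 0.22). Galnt1 stood at 0.67 to 1.34 of the C1galt1 level in the caudal cells and at 1.999 to 2.84 of it in the yolk sac. The chaperone gene C1galt1c1, which is no member, averaged 6.45 ± 1.39 TPM in caudal and 7.72 ± 2.07 TPM in yolk sac libraries (SD, n = 3 each) and did not pass (limma adjusted p = 0.828).

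Among the follow-on enzymes, which act on peptides that already carry the sugar, Galnt4 and Galnt10 had like levels in both tissues. Galnt4 ranged from 4.21 to 4.61 TPM in the caudal cells and from 4.12 to 5.50 TPM in the yolk sac (log2 difference 0.05, SE 0.22). Galnt10 ranged from 2.98 to 3.68 TPM and from 2.81 to 3.02 TPM (log2 difference -0.16, SE 0.21). Both pairs of ranges overlapped. Neither direction was firm, since quantile normalization turned the difference of Galnt10 to 0.03 and the fit without yolk sac replicate 1 that of Galnt4 to -0.06. Exons of Poc1b on the same strand overlap Galnt4, so reads of the pair may be shared.

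Galnt7, also a follow-on enzyme, came after Galnt2 and Galnt1 among the Galnt genes of the yolk sac. Caudal replicates 1, 2 and 3 had 12.3, 12.2 and 10.2 TPM of it, and yolk sac replicates 1, 2 and 3 had 13.6, 20.7 and 11.4 TPM (log2 difference 0.33, SE 0.25). Yolk sac replicate 2 stood above the rest, and replicate 3 lay within the caudal range. Galnt11, whose enzyme acts on the LDL receptor family, had 6.38, 6.41 and 4.16 TPM in caudal replicates 1, 2 and 3 and 5.31, 13.5 and 3.73 TPM in yolk sac replicates 1, 2 and 3 (log2 difference 0.21, SE 0.41). Both its lowest and its highest value were from the yolk sac. Galnt12, another GalNAc-transferase gene, ranged from 0.87 to 1.33 TPM in the caudal cells, and yolk sac replicates 1, 2 and 3 had 1.10, 2.16 and 1.04 TPM (log2 difference 0.21, SE 0.25). Its yolk sac replicates 1 and 3 lay within the caudal range. Exons of AW046200 on the other strand overlap Galnt7, and those of E130116L18Rik overlap Galnt11.

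The close pair Galnt3 and Galnt6 was under 1 TPM in all libraries but yolk sac replicate 2 for Galnt3. Galnt3, whose enzyme is known for glycosylating the hormone FGF23, was at 3.22 TPM in that library and at 0.20 to 0.51 TPM in the 5 others. Galnt6 was at 0.84 TPM in that library and at 0.02 to 0.27 TPM in the others. Neither passed the filter on low values, and Galnt6 shares exonic sequence with Galnt6os on the other strand.

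Yolk sac replicate 2 was thus the highest library for 5 members. The share of all tested genes that were highest in this library was not counted, so this number describes the library and is no result about the members. Its level over the mean of the other 5 libraries was 9.44 for Galnt6, 7.88 for Galnt3, 2.60 for Galnt11, 2.02 for Galnt12 and 1.74 for Galnt7. The same ratio was 1.51 for Galnt1, 1.06 for C1galt1, 0.94 for Galnt10, 0.90 for Galnt4 and 0.64 for Galnt2. Transcripts of yolk sac endoderm, the absorptive epithelium around the blood islands, were also highest in this library. The 10 endoderm markers summed to 12690 TPM in yolk sac replicate 2, to 713.8 TPM in replicate 1 and to 12.99 TPM in replicate 3. In the caudal cells they summed to 20.4 to 30.8 TPM, with Trf as the only marker at 1 TPM or more. Primitive red cell transcripts were high there too, with 1472 TPM over 7 markers in yolk sac replicate 2 and 5.26 to 17.1 TPM in the other libraries. The part of these cells in the levels of Galnt3, Galnt6, Galnt7, Galnt11 and Galnt12 was not tested. Without yolk sac replicate 2 the log2 difference was 0.10 for Galnt7 and 0.01 for Galnt12, and it changed sign to -0.26 for Galnt11, -0.17 for Galnt3 and -0.12 for Galnt6.

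Galnt1 had its highest level in another library, yolk sac replicate 1, where the endoderm markers summed to 713.8 TPM. In yolk sac replicate 2 Galnt1 was at 27.5 TPM. The 9 genes of nascent blood cells given below summed to 184 TPM there, against 438 and 388 TPM in replicates 1 and 3. The part of endoderm cells in the level of Galnt1 was not tested. In yolk sac replicate 3, where 1 of the 10 endoderm markers reached 1 TPM and the alpha-fetoprotein gene Afp was at 0.93 TPM, Galnt1 was 2.52 times the caudal mean. Afp had 6114 TPM in replicate 2 and 312 TPM in replicate 1. Without yolk sac replicate 2 the log2 difference of Galnt1 was 1.52, and with yolk sac replicates 1 and 2 both left out it was 1.26. In that last comparison Galnt2 was at -0.14, Galnt7 at -0.02 and C1galt1 at 0.27.

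**Figure D3:**
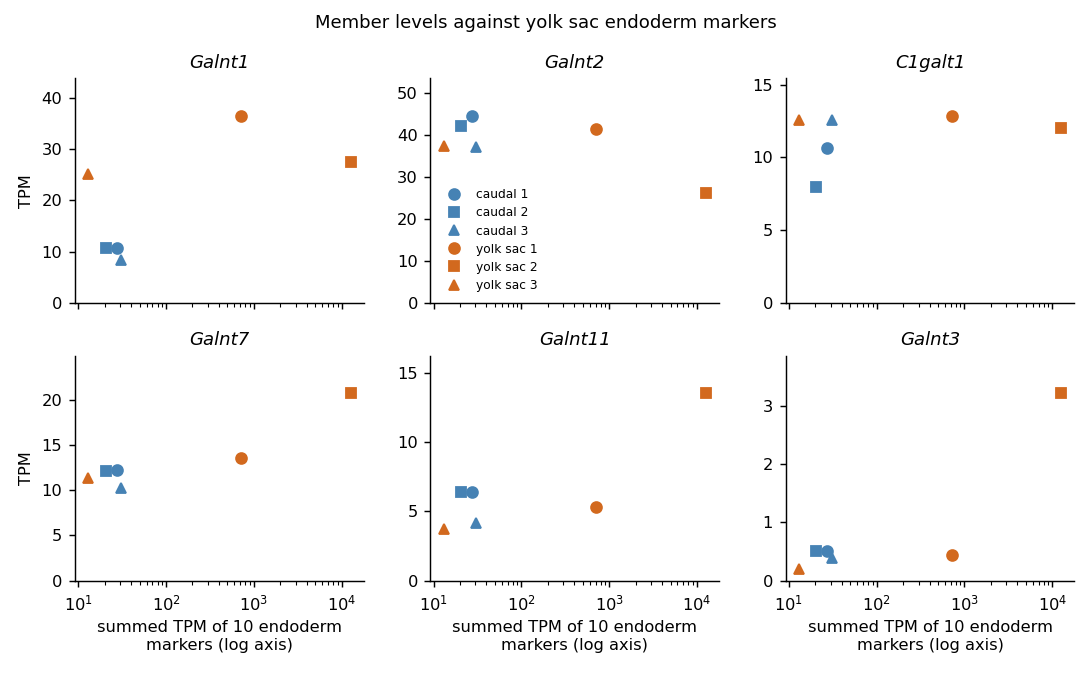
Level of 6 members in TPM (linear axes from 0) against the summed TPM of 10 yolk sac endoderm markers (log axis), 1 point per library, caudal in blue and yolk sac in orange. Galnt7, Galnt11 and Galnt3 are highest in the library with 12690 TPM of endoderm markers. Galnt1 is at 25.1 TPM in the yolk sac library with 12.99 TPM of them, 36.4 TPM in that with 713.8 TPM and 27.5 TPM in that with 12690 TPM.

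Promoter sequences are shown for description, since 5 members were highest in the same library, a count with no share of all genes beside it. RefSeq's promoter table (GRCm38.p6) held 6 of the 10 members, namely Galnt3, Galnt6, Galnt7, Galnt10, Galnt11 and C1galt1. The 250 bases before a start site are printed for Galnt6, Galnt7 and Galnt11, which were highest in yolk sac replicate 2, and for Galnt10, which was not. Windows with an annotated exon are not printed. The windows are chr15:100729377-100729626 (minus strand) for the first start of Galnt6, chr15:100720478-100720727 (minus strand) for its second start, chr8:57653056-57653305 (minus strand) for Galnt7, chr5:25246123-25246372 (plus strand) for the second start of Galnt11 and chr11:57645192-57645441 (plus strand) for Galnt10. Capitals mark the GC box GGGCGG and the E-box CAGATG bound by TAL1, on either strand.
Galnt6: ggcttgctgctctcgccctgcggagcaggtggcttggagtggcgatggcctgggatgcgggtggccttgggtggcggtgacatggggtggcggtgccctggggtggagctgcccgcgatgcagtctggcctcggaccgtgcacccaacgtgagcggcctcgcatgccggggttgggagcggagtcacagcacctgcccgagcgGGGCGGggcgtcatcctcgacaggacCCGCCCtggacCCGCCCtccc
Galnt6, second start: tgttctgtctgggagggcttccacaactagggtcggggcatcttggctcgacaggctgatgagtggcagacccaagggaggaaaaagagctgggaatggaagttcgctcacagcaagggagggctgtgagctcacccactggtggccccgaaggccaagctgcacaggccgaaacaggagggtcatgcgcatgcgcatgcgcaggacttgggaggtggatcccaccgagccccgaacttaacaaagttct
Galnt7: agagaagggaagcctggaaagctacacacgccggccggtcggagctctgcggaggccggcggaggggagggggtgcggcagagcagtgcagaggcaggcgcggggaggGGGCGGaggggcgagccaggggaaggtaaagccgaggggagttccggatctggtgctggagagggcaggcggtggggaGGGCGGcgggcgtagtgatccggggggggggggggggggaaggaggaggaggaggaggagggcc
Galnt11: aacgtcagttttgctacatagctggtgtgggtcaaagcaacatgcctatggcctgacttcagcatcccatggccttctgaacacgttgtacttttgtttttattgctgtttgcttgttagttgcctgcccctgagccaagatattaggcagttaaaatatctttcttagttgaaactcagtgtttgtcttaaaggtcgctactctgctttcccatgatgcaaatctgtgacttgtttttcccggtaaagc
Galnt10: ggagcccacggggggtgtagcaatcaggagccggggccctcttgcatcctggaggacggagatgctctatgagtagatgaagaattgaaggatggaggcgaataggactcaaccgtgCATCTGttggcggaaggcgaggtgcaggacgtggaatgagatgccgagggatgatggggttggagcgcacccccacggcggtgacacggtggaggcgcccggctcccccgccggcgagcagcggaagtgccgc

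These windows differed in CG content. Those of the first start of Galnt6, Galnt7 and Galnt10 held 22, 19 and 20 CG pairs, and those of the second starts of Galnt6 and Galnt11 held 10 and 4, where the median of all 32851 windows of this length was 6. GC boxes were found 3 times at the first start of Galnt6 and 2 times for Galnt7. They were found 0 times for Galnt10 and at the second starts of Galnt6 and Galnt11, and 32.7% of all windows held one. The windows not printed held 3 GC boxes and 34 CG pairs for Galnt3, and 2 and 13 at the first start of Galnt11. That of C1galt1, which was not high in yolk sac replicate 2, held 5 and 44. The TAL1 E-box was found in the Galnt10 window and in 14.4% of all windows. The GATA site AGATAA (9.99% of all windows), the HNF1 half-site GTTAAT (6.43%) and the TATA box TATAAA (12.4%) were in none of the 5 printed windows, searched on both strands. None of these motifs contains another, and a match describes letters, not binding.

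Markers of other cell types differed between the libraries as well. The 9 macrophage markers summed to 6.24 to 9.29 TPM in the caudal cells and 10.7 to 12.4 TPM in the yolk sac, with C1qa listed at 0 in all 6 libraries. Without Mrc1 the 8 others summed to 5.995 to 9.17 TPM in the caudal cells and 7.55 to 9.57 TPM in the yolk sac and overlapped. Most of that sum was Csf1r in every library. The 6 megakaryocyte markers summed to 97.2 to 124 TPM in the caudal cells and to 188, 72.6 and 173 TPM in yolk sac replicates 1, 2 and 3. The 6 endothelial markers summed to 252 to 336 TPM in the caudal cells and 52.6 to 149 TPM in the yolk sac, and the 6 mesenchymal ones to 32.0 to 39.3 and 2.96 to 4.02 TPM. In the caudal cells most of the mesenchymal sum was Acta2, a smooth muscle actin gene, at 26.1 to 36.6 TPM. In the yolk sac Acta2 was at 1.07 to 2.57 TPM. The 5 others summed to 2.19 to 5.93 TPM in the caudal cells and 1.45 to 1.95 TPM in the yolk sac. The 9 genes of nascent blood cells, Hlf, Kit and Runx1 among them, summed to 419 to 604 TPM in the caudal cells and to 438, 184 and 388 TPM in yolk sac replicates 1, 2 and 3. All 9 were at 1 TPM or more in every library except yolk sac replicate 2, where 8 were. The part of these cells in the level of Galnt1 was not tested.

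The order of levels within the set differed between tissues at the top. By mean TPM in the caudal cells Galnt2 came first, clear of Galnt7, C1galt1 and Galnt1, whose ranges of 10.2 to 12.3, 7.96 to 12.5 and 8.44 to 10.7 TPM overlapped. Galnt11 and Galnt4 followed with overlapping ranges, then Galnt10, Galnt12, Galnt3 and Galnt6, each below the range of the one before it. In the yolk sac Galnt2 and Galnt1 led with overlapping ranges (26.1 to 41.5 and 25.1 to 36.4 TPM). Galnt7, C1galt1 and Galnt11 came next, and the wide range of Galnt11 (3.73 to 13.5 TPM) overlapped those of Galnt7, C1galt1 and Galnt4. Galnt10 lay below Galnt4 and Galnt12 below Galnt10, while the range of Galnt3 (0.20 to 3.22 TPM) overlapped those of Galnt10, Galnt12 and Galnt6. Among the 10 members Galnt1 took place 3, 3 and 4 in caudal replicates 1, 2 and 3 and place 2, 1 and 2 in yolk sac replicates 1, 2 and 3.

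Most of the remaining GalNAc-transferase genes were listed near 0. Of the 10 other family genes with a row, Galnt5, Galnt9, Galnt13, Galnt14, Galnt15, Galnt16, Wbscr17, Galntl5 and Galntl6 were under 1 TPM in every library. Galnt5 was the highest of these 9, at up to 0.40 TPM, and Galnt13, a close relative of Galnt1, was listed at 0 in all 6 libraries. Galnt18 alone was tested. Caudal replicates 1, 2 and 3 had 2.48, 1.75 and 2.16 TPM of it, and yolk sac replicates 1, 2 and 3 had 1.32, 1.47 and 0.86 TPM. Its tissues did not overlap, but its log2 difference of -0.50 (SE 0.23) did not pass (limma adjusted p = 0.539).

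Few genes of the wider glycosylation machinery passed. The pathway lists held 143 genes outside the members, of which 112 were tested, and 1 passed toward the yolk sac (Mrc1) and 1 toward the caudal cells (Cd24a). Mrc1 entered the fit only through the yolk sac, where it is high, and was not called with no filter (limma adjusted p = 0.175). At an unadjusted p under 0.05 there were 10 of 112, or 8.93%, and 9.63% over all tested genes. Of the 112 differences 59 were positive, or 52.7% (median 0.03), while 38.0% were positive over all tested genes. These shares were 53.6% and 47.6% without yolk sac replicate 2, and the order turned to 31.2% and 38.2% with yolk sac replicates 1 and 2 both left out. The shares over all tested genes are the background for the counts of each list below.

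Later steps on the O-glycan itself gave no gene that passed. Of 2 tested core extension genes and 8 tested genes of sialylation, sulfation and fucosylation, 0 passed limma and 0 had an unadjusted p under 0.05. Gcnt1, which builds the core 2 branch, averaged 15.6 ± 4.13 TPM in caudal and 11.4 ± 2.40 TPM in yolk sac libraries (SD, n = 3 each, limma adjusted p = 0.675). St3gal1, which caps core 1 with sialic acid, averaged 51.3 ± 7.81 and 39.6 ± 12.2 TPM (SD, n = 3 each, limma adjusted p = 0.683). St6galnac2, which adds sialic acid to the first sugar, averaged 3.71 and 6.52 TPM (adjusted p = 0.669), with a yolk sac mean of 4.26 TPM without replicate 2. Its relative St6galnac6 averaged 2.53 and 1.69 TPM (adjusted p = 0.704). Gcnt4, a relative of Gcnt1 that did not pass the filter, was at 10.8 TPM in yolk sac replicate 2 and at most 0.79 TPM elsewhere, high in the same library as Galnt3.

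Genes that supply the sugar nucleotides had a positive median that was smaller without yolk sac replicate 2. Of 19 tested, 0 passed limma, 1 had an unadjusted p under 0.05 and 13 (68.4%) were positive (median 0.39). Over all tested genes 38.0% were positive (median -0.09). Without yolk sac replicate 2, 11 of the 19 were positive (median 0.10), against 47.6% of all tested genes. With yolk sac replicates 1 and 2 both left out 7 were (median -0.05), against 38.2%. Slc35d1, a carrier of UDP sugars, ranged from 6.89 to 10.2 TPM in caudal and from 10.9 to 15.9 TPM in yolk sac libraries, with no overlap (limma adjusted p = 0.469). Pgm3, which acts in UDP-GlcNAc synthesis, was at 23.1 TPM in yolk sac replicate 2 and at 2.81 to 7.12 TPM in the others (adjusted p = 0.547). Cmas, which activates sialic acid, averaged 77.3 and 59.99 TPM (adjusted p = 0.539).

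Subunits of the oligosaccharyltransferase, which starts N-glycosylation in the endoplasmic reticulum, were positive in 11 of 12 cases (median 0.21). Of these 12, 0 passed limma and 2 (16.7%) had an unadjusted p under 0.05. Over all tested genes 38.0% were positive (median -0.09) and 9.63% had an unadjusted p under 0.05. Without yolk sac replicate 2 all 12 subunits were positive (median 0.14), against 47.6% of all tested genes. With yolk sac replicates 1 and 2 both left out 8 were (median 0.02), against 38.2%. Rpn1 ranged from 30.4 to 41.4 TPM in caudal and from 50.1 to 58.3 TPM in yolk sac libraries, with no overlap (adjusted p = 0.25). Ostc averaged 63.9 and 113.6 TPM (adjusted p = 0.475), with 167.8 TPM in yolk sac replicate 2. Ddost averaged 128.0 and 150.8 TPM (adjusted p = 0.68).

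Other kinds of O-glycosylation and the Golgi machinery had no gene past the threshold. Of 11 tested genes listed for glycosylation of EGF repeats, such as those of Notch, 3 were positive, Pofut2 among them. Of these 11, 0 passed limma or had an unadjusted p under 0.05. The count of positive genes was 5 without yolk sac replicate 2, 6 with median centring and 1 with yolk sac replicates 1 and 2 both left out. Mfng, a fringe enzyme gene, averaged 55.7 and 42.8 TPM (limma adjusted p = 0.712) and the xylosyltransferase gene Gxylt1 14.1 and 11.97 TPM (adjusted p = 0.749). The fucosyltransferase gene Pofut2, whose enzyme acts on thrombospondin repeats and not on EGF repeats, averaged 18.3 and 23.1 TPM (limma adjusted p = 0.746). In O-mannosylation 0 of 14 passed limma and 2 had an unadjusted p under 0.05. These were Tmtc2 (10.0 TPM in caudal, 4.49 TPM in yolk sac libraries, adjusted p = 0.386) and Large (7.17 and 3.67 TPM, adjusted p = 0.456), and Tmtc4 averaged 2.27 and 1.61 TPM (adjusted p = 0.692). Of 6 proteoglycan linker, 2 O-GlcNAc, 8 COG complex, 8 COPI coat and 4 lysosomal genes, 0 passed limma or had an unadjusted p under 0.05. Their smallest adjusted p was that of B3gat3, a linker enzyme gene, at 7.69 and 11.03 TPM (adjusted p = 0.574).

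Proteins that carry or bind these glycans held both called genes. Cd24a, a small mucin-like surface protein, had 106.6, 67.7 and 78.8 TPM in caudal replicates 1, 2 and 3 and 17.4, 11.7 and 17.5 TPM in yolk sac replicates 1, 2 and 3. Every caudal library was above every yolk sac library, and the log2 difference was -2.36 (SE 0.24, limma adjusted p = 0.0114). It was not called without caudal replicate 1 (limma adjusted p = 0.0675) or 3 (0.0709), and its adjusted p was 0.00857 to 0.211 over all alternatives. Of 11 tested carriers 4 (36.4%) were positive (median -0.44, or -0.14 without yolk sac replicate 2), and 3 (27.3%) had an unadjusted p under 0.05. Over all tested genes these shares were 38.0% and 9.63%. Emcn, an endothelial sialomucin and 1 of the 6 endothelial markers, averaged 10.2 and 2.20 TPM (adjusted p = 0.173), with a yolk sac mean of 1.02 TPM without replicate 1. Muc13, a transmembrane mucin, averaged 5.47 and 15.4 TPM (adjusted p = 0.269), and neither gene overlapped between tissues. Pdpn was at 47.3 TPM and Muc1 at 7.19 TPM in yolk sac replicate 2, and at most at 4.79 and 1.03 TPM in the other libraries.

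Of 6 tested lectin genes, 1 passed, 2 were positive (median -0.12) and 2 had an unadjusted p under 0.05. Without yolk sac replicate 2, 3 were positive (median -0.01). Mrc1 encodes the mannose receptor, which also binds sulfated GalNAc. It had 0.15, 0.12 and 0.24 TPM in caudal replicates 1, 2 and 3 and 2.53, 2.80 and 3.12 TPM in yolk sac replicates 1, 2 and 3 (log2 difference 1.70, SE 0.20, limma adjusted p = 0.0192). Mrc1 is also 1 of the 9 macrophage markers, and the 8 others overlapped between tissues in their sum, which was mostly Csf1r. Of these 8, Cx3cr1 did not overlap, at 0.485 to 0.751 TPM in the caudal cells and 0.859 to 0.962 TPM in the yolk sac. Csf1r and all the rest overlapped. The part of macrophages in the level of Mrc1 was not tested. With 1 library left out it was called only where that was yolk sac replicate 2 (limma adjusted p = 0.0351). Its limma adjusted p was 0.0235 to 0.175 over the 15 alternatives that tested it, and the filter at a mean of 10 TPM left it out. Lgals1, a galectin gene, averaged 13.8 ± 1.90 and 8.31 ± 0.37 TPM (SD, n = 3 each) with no overlap (limma adjusted p = 0.324), and Lgals9 76.2 and 55.98 TPM (adjusted p = 0.699).

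**Figure D4:**
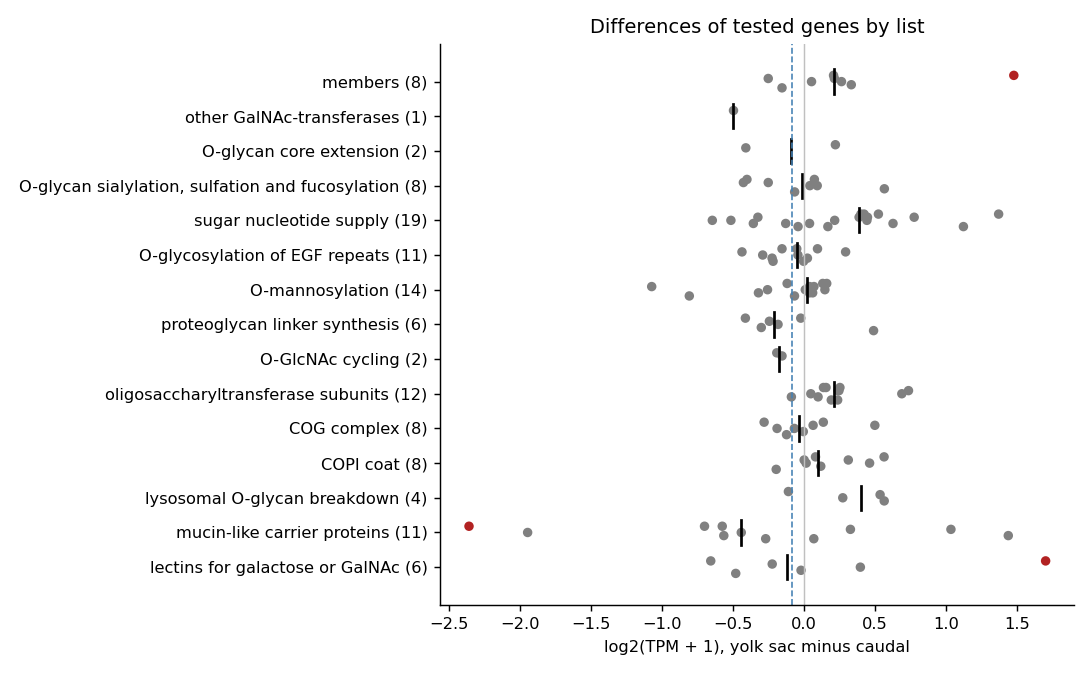
Difference in log2(TPM + 1), yolk sac minus caudal, for each tested member and each tested gene of the 14 pathway lists (number tested in brackets), with a black bar at each median and red points for genes past the threshold. The dashed line is the median of all tested genes at -0.09, and Galnt1, Cd24a and Mrc1 are the red points, of which Mrc1 passed the filter on low values only through the yolk sac.

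The genes whose levels ran most like Galnt1 over the 6 libraries were Vac14, Mrpl41, Hibadh, Pstk, Zc3hav1, Tram1, Me2 and Terf1, among 7818 genes compared. Their Pearson correlations with Galnt1 on log2(TPM + 1) were 0.981 to 0.993 over 6 libraries. The points share libraries, scaling and the tissue contrast by which Galnt1 was chosen, so the order is a description only. All 8 were higher in the yolk sac without overlap between tissues, which their choice by likeness to Galnt1 all but fixed in advance. Over all tested genes 4.14% separated in this direction. Hibadh, a mitochondrial enzyme of valine breakdown, had the largest log2 difference of the 8 (1.26), at 8.70 ± 1.60 and 22.0 ± 1.97 TPM, and Vac14 the smallest (0.32), at 25.7 ± 1.15 and 32.4 ± 0.90 TPM (SD, n = 3 each). Among the tested members the correlation with Galnt1 was highest for Galnt7, at 0.56, and lowest for Galnt10, at -0.70.

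The direction of the Galnt1 difference was the same in every setting tried, but for most settings this was fixed in advance. Every yolk sac library was above every caudal one, so leaving out libraries or changing the pseudocount could not turn it. Other filters and the replicate block cannot change the difference at all. Over 16 alternatives the log2 difference was between 1.20, with a pseudocount of 5, and 1.59. Galnt2 was negative and C1galt1 positive in all 16, which reuse the same 6 libraries. Neither direction was firm, since both genes overlapped between tissues. The difference was -0.06 for Galnt2 without yolk sac replicate 2 and 0.10 for C1galt1 without caudal replicate 2.

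**Figure D5:**
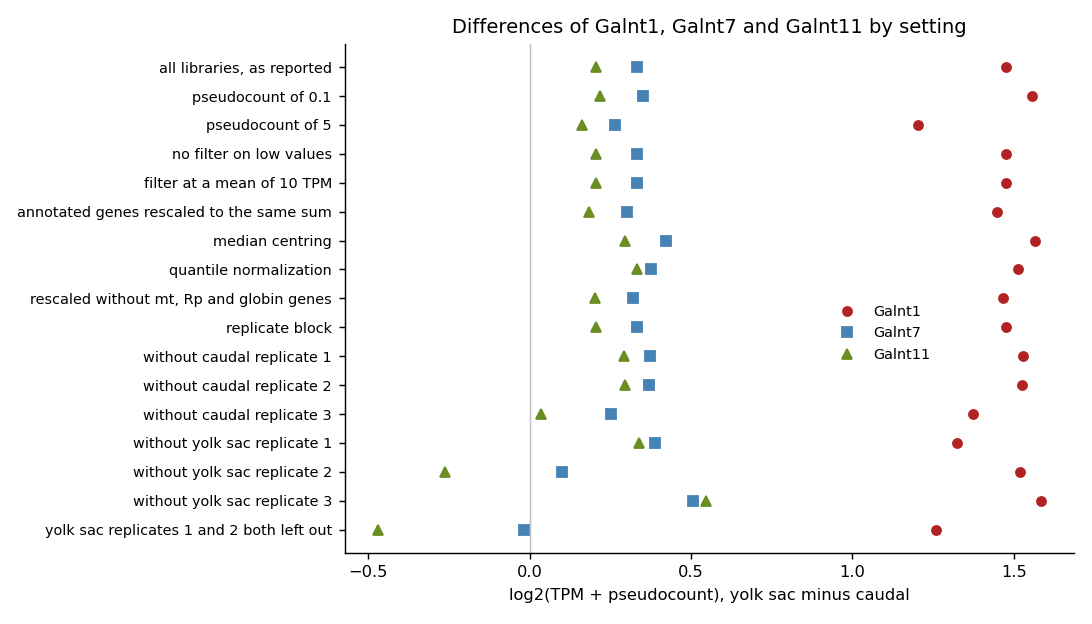
Difference in log2 level, yolk sac minus caudal, of Galnt1 (red circles), Galnt7 (blue squares) and Galnt11 (green triangles) in the reported comparison and under 16 alternatives. Galnt1 lies between 1.20 and 1.59, while Galnt11 goes from 0.21 to -0.26 when yolk sac replicate 2 is left out.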

How the data were processed

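RNA from lysates of 100 sorted cells was sequenced in 6 libraries. Per the submitters' processing notes, reads went through HISAT2 and StringTie with the mm10 build. For tool versions, annotation release and strand use the entry is: not given in the sources used here. The deposited column, called TPM per the file headers, is handled as a signal scaled by the authors in each library: unnamed assembled loci summed to 1000000 TPM and annotated genes came on top with 555230 to 684549 TPM. Only annotated genes were used (47643 IDs, of which 47224 are in GENCODE M21), with 27 date-like symbols restored by ID and rows of a symbol summed. TPM keeps no read depth, so depth is unknown and no counting interval can be given. The number of genes that reached 1 TPM was 15644 to 16975 per library.

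Tissues were compared on log2(TPM + 1) with limma 3.58.1 (R 4.3.3), a linear model of tissue with an empirical Bayes trend and two-sided tests. The fit held the 16436 genes that reached 1 TPM in 3 or more libraries, and p-values were adjusted over all of them by Benjamini-Hochberg with a threshold of 0.05. The fit was tested on simulated data. The members and lists were chosen with earlier results of these data known. Named genes were the members, the family, genes of each list past the threshold or up to 3 by smallest p, and the 8 genes most correlated with Galnt1 with at least 5 TPM in the yolk sac and not sex-linked. Some other genes were named after their values were seen (Gcnt4, Pdpn, Muc1, Emcn, Muc13, Lgals1 and Lgals9). Alternatives were other pseudocounts, filters and scalings, the replicate number as a block and leaving out libraries.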

Additional observations from a re-analysis of the deposited data

How the results depend on the processing

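The 57 genes higher in the caudal cells and 6 higher in the yolk sac became 37 and 2 with a pseudocount of 5, 8 and 0 when genes needed a mean of 10 TPM, 1 and 0 with no filter, and 13 and 0 with yolk sac replicates 1 and 2 both left out. That last setting keeps 1 yolk sac library, which is assumed to vary like the caudal ones, and those alone supply the spread. With 1 library left out they were 2 to 55 and 0 to 6, and the lowest count came without caudal replicate 3. The pathway lists then held 0 to 1 called gene in each direction. With no filter, and with yolk sac replicates 1 and 2 both left out, 0 pathway genes passed either way, and when genes needed a mean of 10 TPM 0 passed toward the yolk sac. In the fit with the replicate block 0 genes passed in either direction, pathway genes included. The Galnt1 difference, which the block cannot change, was 1.48 and was not called. Deviations of same-numbered libraries correlated at 0.019, -0.021 and -0.003, and caudal replicates 2 and 3 correlated best with another number. These values cannot decide whether same-numbered libraries share embryos, since noise between single libraries may hide a shared source. The Galnt1 difference was 1.20 with a pseudocount of 5, and 1.32 to 1.59 with 1 library left out. Its share of the Galnt pool was 15.4 to 18.9 percentage points higher in the yolk sac over the settings that left out libraries. Galnt4, Galnt7 and Galnt12 turned to -0.03, -0.02 and -0.01 with yolk sac replicates 1 and 2 both left out. Read depth is unknown here, so the counting error behind levels under 1 TPM, as for Galnt3 and Galnt6, cannot be given.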
